A study of Mus musculus with 8 samples.

Results

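The miR-30 family was followed through 8 small-RNA libraries of NIH-3T3 cells, an immortalised line of mouse embryo fibroblasts. Its members were all mature arms read from the 6 mouse hairpins Mir30a, Mir30b, Mir30c-1, Mir30c-2, Mir30d and Mir30e, which gave 11 of the 433 mature miRNAs in these data. miR-30c-5p is made identically by 2 of the hairpins, so its reads cannot be assigned to 1 of them. All cells were passaged in medium with 10% serum. In the serum experiment they were kept without serum for 48 h, given 20% serum, and collected at 0 h (labelled G0), 12 h (G1), 16 h (S), 20 h (G2/M) and 24 h (G1). In the contact experiment they were plated at 12% confluency and collected at day 0 (asynchronous), day 3 and day 5 (both G0). There was 1 library for each condition. For the test between groups, the 3 G0 libraries were set against the other 5, so that a p-value refers to the spread among these 8 libraries and to nothing wider.

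The miR-30 5p arms carry a common seed (bases 2 to 8), the stretch by which a miRNA in an Argonaute protein finds its targets. In heart and other tissues the family is known for repressing Ccn2, a matricellular growth factor of fibroblasts, and in epithelial cells it is known for repressing Snai1, a driver of the epithelial to mesenchymal transition. A hairpin gives a 5p and a 3p product, and usually 1 of them is kept while the other is degraded.

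The mature sequences below are from RefSeq (GRCm38.p6), which held 7 of the 11 members, and are shown because the seed, the few bases that separate members and the 3′ ends carry the results. They run 5′ to 3′ with the seed in capitals.
miR-30a-5p: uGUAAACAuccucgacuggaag
miR-30e-5p: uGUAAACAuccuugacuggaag
miR-30c-5p: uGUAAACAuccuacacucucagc
miR-30a-3p: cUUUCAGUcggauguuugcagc
miR-30e-3p: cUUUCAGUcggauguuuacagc
miR-30c-1-3p: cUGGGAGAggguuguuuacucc
miR-30c-2-3p: cUGGGAGAaggcuguuuacucu
The 3 5p sequences share the seed GUAAACA. The 3p sequences fall into a pair with the seed UUUCAGU and a pair with the seed UGGGAGA. Counted from the 5′ end, miR-30e-5p differs from miR-30a-5p by C13U within the 22 bases that both have, and miR-30e-3p differs from miR-30a-3p by G18A. miR-30c-2-3p differs from miR-30c-1-3p by G9A, U12C and C22U. Members that differ by so little could be exchanged by sequencing errors. Of 10017 reads with the frame that miR-30a-5p and miR-30d-5p and miR-30e-5p share around 2 adjacent bases, 37 (0.369%) carried a pair of bases that belongs to none of the family, spread over the 13 other pairs.

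The hairpins lie in 3 pairs (build GRCm38, GENCODE M21). On chromosome 1, Mir30a (chr1:23272269-23272339, plus strand) has no other annotated gene over it, and Mir30c-2 (chr1:23291701-23291784, plus strand) lies 19362 bases away in an exon of the lincRNA Gm27028. On chromosome 4, Mir30c-1 (chr4:120769534-120769622, minus strand) and Mir30e (chr4:120772606-120772697, minus strand) lie 2984 bases apart in an intron of Nfyc, which encodes a subunit of the CCAAT-binding factor NF-Y. On chromosome 15, Mir30b (chr15:68337415-68337510, minus strand) overlaps an exon of the processed transcript Gm26621 and Mir30d (chr15:68341208-68341289, minus strand) overlaps exons of the lincRNA Gm20732 and of Gm37296. They are 3698 bases apart.

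The libraries held 707202 to 8512472 reads each, with 137585 to 892528 assigned to miRNAs. Reads taken to be marker oligonucleotides made up 59.6% to 91.6% of reads in the serum libraries and at most 0.0351% in the contact libraries. Inserts shorter than 16 nt made up 28.1% of reads in the serum 0 h library and 0.566% to 1.83% elsewhere. Some serum libraries held few distinct sequences: at 100000 miRNA reads the 12 h library had 1084 distinct inserts and the 0 h library 1604, against 1989 to 3263 in the other 6. The 6 fibroblast or mesenchymal markers were all detected in all 8 libraries, at 60447 to 324886 per 1000000 miRNA reads. Markers of other cell types were not level. Some listed markers were not among the miRNAs counted, since no arm was defined for them. Epithelial markers (5 of 6 counted, without miR-429, and 4 detected at 0 h, with miR-205 at 0) summed to 2879 on this scale at 0 h and 0 to 65.3 elsewhere. Blood markers (3 of 5 counted, 2 detected at 0 h) summed to 450 at 0 h and 0 to 9.13 elsewhere. Pluripotent or germ line markers (4 of 5 counted, 3 detected at 12 h) summed to 1295 at 12 h and 0 to 219 elsewhere. Neural markers were at 0 at 12 h and between 331 and 1286 elsewhere, and muscle markers were between 84.4 and 592. The liver marker miR-122 had no reads assigned. Their part in the results was not tested. The reads carry no molecular identifiers, so the intervals given cover counting error only.

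miR-30 was a minor family in these cells. Its share of miRNA reads was 0.852%, 0.846%, 0.826%, 0.855% and 0.728% at 0, 12, 16, 20 and 24 h of serum, and 0.441%, 0.370% and 0.301% on days 0, 3 and 5 of contact. The serum libraries were thus all above the contact libraries, and the 95% exact binomial intervals (Clopper-Pearson) of the contact days were 0.419% to 0.464%, 0.352% to 0.389% and 0.286% to 0.318%. The separation of the experiments holds for shares of the total only. The factors of the TMM scaling used for the levels below were 1.17 to 1.43 in serum and 0.56 to 0.81 in contact. On that scale contact day 0 held more of the family than any serum library. These shares count a read by its first 20 bases, whatever its 3′ tail. Where only inserts identical to the hairpin over their whole length were counted, the contact shares were 0.247%, 0.247% and 0.261% and were not lower from day to day, while the serum shares (0.559% to 0.751%) were still all above them. In bulk RNA, fewer cells making a miRNA and less of it per cell cannot be told apart. The experiments also differ in depth and in marker content, and these cannot be told apart from the experiment. By mean level over the 8 libraries, miR-30d-5p ranked 45 of 433 miRNAs, miR-30c-5p 71, miR-30b-5p 109, miR-30a-5p 123 and miR-30e-5p 150.

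**Figure D1:**
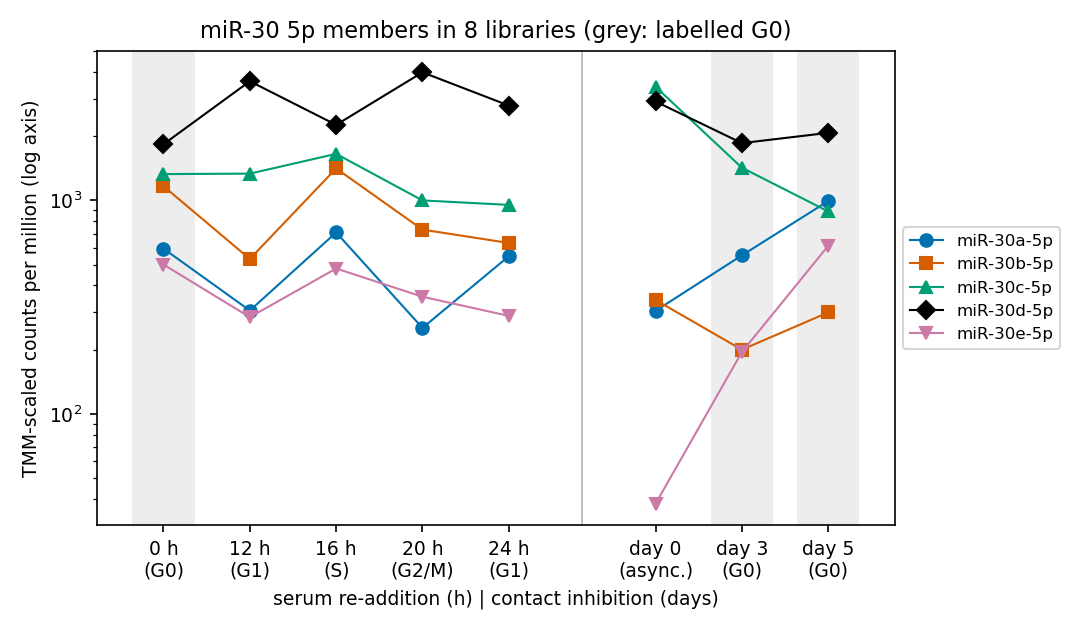
Level of each miR-30 5p member (vertical axis, TMM-scaled CPM, log axis) in the 8 single libraries (horizontal axis, hours of serum and days of contact), 1 point per library and lines only to guide the eye. miR-30d-5p is the highest in all libraries but contact day 0, where miR-30c-5p is, and miR-30e-5p is at 38 on contact day 0 and 613 on day 5.

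Levels are given as CPM, miRNA counts per 1000000 after TMM scaling, which adjusts library totals by the bulk of miRNAs. miR-30d-5p, the most abundant member, had 1832, 3614, 2258, 3979 and 2781 CPM over the serum times, and 2906, 1855 and 2072 CPM on contact days 0, 3 and 5. Its 3 G0 libraries (1832 to 2072) all lay below the other 5 (2258 to 3979). It was the only one of 11 members whose groups did not overlap, beside 4.32% of all 347 tested miRNAs that lay below and 4.03% that lay above in every G0 library. The separation depended on scaling: with DESeq2 size factors the G0 libraries held 1832 to 2075 and the others 2282 to 3841, but per total of miRNA reads with no further factor they overlapped, at 1155 to 2627 in G0 and 1641 to 5133 in the others. With that scaling the median of all tested miRNAs moved by −0.84 (contact day 5) to 0.52 (0 h) on the log2 scale against TMM.

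miR-30b-5p, from the same stretch of chromosome 15, had 1166, 532, 1412, 730 and 632 CPM at 0, 12, 16, 20 and 24 h, and 342, 200 and 299 CPM on contact days 0, 3 and 5. All 5 serum libraries (532 to 1412) were above all 3 contact libraries (200 to 342). That separation did not hold with whole inserts: miR-30b-5p then had 0 reads at 12 h, 308 to 1009 CPM at the other serum times, and 76 to 280 CPM in the contact libraries. Within the serum experiment 0 h and 16 h were the high libraries by either count.

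miR-30c-5p had 1328, 1335, 1652, 1000 and 953 CPM over the serum times, a range of under 2-fold. It had 3406, 1423 and 888 CPM on contact days 0, 3 and 5. On this scale the asynchronous day 0 library held the highest level and day 5 the lowest. The place of day 0 depended on scaling and counting. Per 1000000 miRNA reads with no further factor it held 1923, with 1928 at 16 h and 1904 at 0 h, and day 5 was still the lowest at 495. With whole inserts it had 912 CPM on day 0, 634 on day 3 and 712 on day 5, and 0 h was the highest library at 1253 CPM and 24 h the lowest at 357 CPM.

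miR-30a-5p had 595, 305, 708, 253 and 548 CPM over the serum times and 304, 553 and 993 CPM on contact days 0, 3 and 5. Its lowest libraries were 20 h, day 0 and 12 h, and its highest was day 5. The G0 libraries (553 to 993) and the others (253 to 708) overlapped. The place of day 5 depended on scaling. Per total of miRNA reads with no further factor, day 5 held 554, below 853 at 0 h, 826 at 16 h and 720 at 24 h. Day 0, 20 h and 12 h were then still the lowest, at 172, 327 and 423.

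miR-30e-5p had 501, 284, 480, 354 and 288 CPM over the serum times and 38, 195 and 613 CPM on contact days 0, 3 and 5. The day 0 value came from 7 reads, and the 12 h value from 80 reads of 1 single insert sequence. Its span of 16.1-fold over the 8 libraries was the widest of the 5p arms, against 2.17-fold for miR-30d-5p.

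With reads counted whatever their tail, the order of the 5p arms was much alike in the serum libraries. miR-30d-5p, miR-30c-5p and miR-30b-5p came in this order in all 5. With whole inserts these members kept that order among themselves, but the libraries were less alike. miR-30a-5p then came next after miR-30d-5p at 16 h, with 769 CPM against 593 for miR-30c-5p and 514 for miR-30b-5p. It did so at 24 h too, with 699 CPM against 357 and 350. At 12 h miR-30b-5p was last with 0 reads. On contact day 0 miR-30c-5p stood first with miR-30d-5p next (with whole inserts miR-30d-5p stood first there, with 329 reads and 168 of miR-30c-5p), and on day 5 miR-30a-5p stood second and miR-30b-5p last. Of 32 neighbouring pairs in the orders with reads counted whatever their tail, 9 had overlapping counting intervals. Among them were miR-30c-5p and miR-30b-5p at 0 h, miR-30c-5p and miR-30d-5p on day 0, and miR-30a-5p and miR-30c-5p on day 5. As shares of the family's 5p reads, miR-30d-5p took 33.8%, 59.5%, 34.7%, 63.0% and 53.5% over the serum times and 41.5%, 43.9% and 42.6% over the contact days. miR-30c-5p took 15.8% to 25.4% in serum, and 48.7%, 33.7% and 18.3% on contact days 0, 3 and 5.

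No member passed the test between G0 and the other libraries. edgeR's quasi-likelihood test (2-sided, experiment as a term, Benjamini-Hochberg adjusted over 347 miRNAs) called 3 miRNAs (0.865%), and of the 11 miR-30 members, all of which passed the filter of 10 CPM in 3 libraries, it called 0. At an unadjusted p under 0.05 there were 39 miRNAs and 0 members, and DESeq2 called 16 miRNAs and 0 members. The log2 fold changes of G0 over other libraries had a median of −0.31 over all tested miRNAs and 0.08 over the members, with 6 of 11 positive. miR-30e-5p was at 1.77 (SE 0.93, adjusted p = 0.512) and miR-30a-5p at 0.82 (SE 0.65, adjusted p = 0.647). miR-30d-5p was at −0.69 (SE 0.49, adjusted p = 0.634), miR-30c-5p at −0.63 (SE 0.50, adjusted p = 0.647) and miR-30b-5p at 0.08 (SE 0.54, adjusted p = 0.953).

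The value of miR-30e-5p leaned on contact day 0: without that library it was 0.52, and without each of the others in turn it was 1.16 to 3.61. An interaction term compared the G0 difference of the serum experiment with that of the contact experiment (serum minus contact). It called 0 of 347 miRNAs (0%), with 14 at an unadjusted p under 0.05 and none of them a member, and DESeq2 called 0. The largest of the 5p members were miR-30e-5p at −2.89 (SE 1.55, adjusted p = 0.864) and miR-30c-5p at 1.66 (SE 1.02, adjusted p = 0.864) on the log2 scale.

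Between single libraries no test was possible, so ratios of CPM are given with 95% exact conditional binomial intervals. A ratio is called where it is at least 2-fold with an interval that excludes 1, if either library holds 100 reads or more of the miRNA. Between contact day 5 and day 0, miR-30e-5p was 16.1-fold higher on day 5 (7.64 to 40.7) and miR-30a-5p 3.26-fold higher (2.44 to 4.44), while miR-30c-5p was at 0.261 of day 0 (0.223 to 0.304) and miR-30d-5p at 0.713 (0.631 to 0.805). So 2 of 4 members were called higher and 1 lower, beside 38% and 27.2% of all 158 miRNAs compared. The lower call depended on the counting rule: with whole inserts, a count added after seeing the data, miR-30c-5p was at 0.781 of day 0 (0.629 to 0.970, from 178 reads on day 5 and 168 on day 0) and was not called. The 2 higher calls held, at 21.7-fold for miR-30e-5p and 3.33-fold for miR-30a-5p.

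By day 3 miR-30c-5p was at 0.418 of day 0 (0.371 to 0.470), the only 1 of 3 members called, beside 20.9% of 153 miRNAs called lower and 18.3% called higher. With whole inserts it was at 0.695 (0.565 to 0.856, from 211 reads on day 3 and 168 on day 0) and was not called. By the first 20 bases miR-30a-5p was then at 1.82 of day 0 (1.35 to 2.49) and miR-30d-5p at 0.638 (0.569 to 0.717). Between day 5 and day 3, miR-30e-5p was 3.15-fold higher (2.36 to 4.24), the only 1 of 4 members called, beside 26.8% called higher and 17.1% called lower.

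In the serum experiment, cells at 0 h had 2.19-fold the miR-30b-5p of 12 h cells (1.81 to 2.66), beside 24.4% of miRNAs called higher and 28.3% lower. They had 2.35-fold the miR-30a-5p of 20 h cells (1.75 to 3.19) and 0.460 of their miR-30d-5p (0.415 to 0.510), beside 16.7% called higher and 18.5% lower. Against 24 h no member was called of 5 by the first 20 bases, beside 21.7% called higher and 15.9% lower. Against 16 h 1 of 8 members was called by this count, miR-30c-2-3p. It had 0 reads at 0 h and 125 at 16 h, and so was at least 13.6-fold lower if the 0 h library is given 3 counts. That share stood beside 14.6% called lower and 6.39% called higher. The 5p arms at 0 h were at 0.803 to 1.04 of their 16 h levels, and at 0.738 to 2.11 with whole inserts. With whole inserts miR-30c-5p was called higher at 0 h against 12, 16, 20 and 24 h (2.84, 2.11, 3.13 and 3.51). miR-30b-5p was then also called higher against 20 h (3.27) and 24 h (2.89), and miR-30d-5p lower against 12 h (0.458). Of all miRNAs, 26.9%, 6.34%, 16.1% and 25.7% were then called higher against these times. Those called lower were 25.1%, 14.1%, 18.7% and 17.6%.

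From 12 h to 16 h miR-30b-5p was 2.65-fold higher at 16 h (2.24 to 3.16) and miR-30a-5p 2.32-fold higher (1.85 to 2.93). The 3p arms of miR-30a, miR-30e and miR-30c-2 had 224, 217 and 125 reads at 16 h and 0 at 12 h, at least 20.2-fold, 19.6-fold and 11.3-fold higher if 12 h is given 3 counts. That made 5 of 8 members called higher, beside 31.5% of 222 miRNAs called higher and 19.4% lower. From 16 h to 20 h miR-30a-5p was at 0.358 (0.270 to 0.466), miR-30e-3p at 0.385 (0.227 to 0.616) and miR-30c-2-3p at 0.246 (0.0970 to 0.522). These 3 of 8 were called lower, beside 14.7% called lower and 12.4% higher. From 20 h to 24 h none of 3 members was called, beside 3.82% called higher and 4.58% lower.

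The 12 h library weighs on several of these ratios. It held 0 reads of all 3p arms of the family but miR-30b-3p, whose 9 reads were of 1 insert sequence, and it had the fewest distinct miR-30d-5p inserts. Drawn down to 500 reads of miR-30d-5p, the serum libraries held 16.2, 13.7, 39.8, 33.7 and 18 distinct inserts in the order of time, and the contact libraries 70.3, 64.8 and 55.6. The part of this in the ratios was not tested.

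Ratios between members need no scaling between libraries. The partners on chromosome 15 did not keep a fixed proportion: miR-30b-5p over miR-30d-5p was 0.637 (0.560 to 0.723), 0.147, 0.625 (0.586 to 0.668), 0.183 and 0.227 over the serum times, and 0.118, 0.108 and 0.144 on contact days 0, 3 and 5. The 0 h and 16 h libraries were the highest, and the intervals of the 3 contact libraries overlapped each other. With whole inserts the ratio was 0.612 at 0 h, 0 at 12 h (0 reads of miR-30b-5p and 849 of miR-30d-5p), 0.230 at 16 h, 0.0763 at 20 h and 0.122 at 24 h, and 0.0426, 0.121 and 0.176 on contact days 0, 3 and 5. Unequal recovery of the members in a library also changes such a ratio, and its part was not tested.

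In the Nfyc intron pair, miR-30c-5p over miR-30e-5p was 2.65, 4.70, 3.44, 2.82 and 3.31 over the serum times. On contact days 0, 3 and 5 it was 89.6 (43.2 to 224), 7.30 (5.67 to 9.54) and 1.45 (1.18 to 1.79), lower at each step with intervals that did not meet. With whole inserts it was 2.14, 1.30, 1.11, 1.03 and 1.20 in serum and 33.6, 3.52 and 1.21 in contact, so that day 0 was the highest and day 5 below day 3 by either count, but day 5 was below all serum libraries only by the first 20 bases. In the chromosome 1 pair, miR-30a-5p over miR-30c-5p was 0.448, 0.229, 0.428, 0.253 and 0.576 in serum and 0.0893, 0.389 and 1.12 on contact days 0, 3 and 5. With whole inserts this ratio was highest at 24 h (96 reads of miR-30a-5p and 49 of miR-30c-5p), above day 5 (226 and 178). Day 0 was still the lowest (50 and 168). The ratios of both pairs contain the reads of both miR-30c hairpins. The 3p arms tell these hairpins apart: miR-30c-1-3p had 22, 0, 6, 1 and 4 reads in serum and 2, 10 and 3 in contact, and miR-30c-2-3p had 0, 0, 125, 7 and 12 reads and 38, 6 and 13. At 0 h only the chromosome 4 product was seen, at 16 h and on contact day 0 nearly only the chromosome 1 product, and the 22 reads at 0 h were copies of 1 insert sequence.

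**Figure D2:**
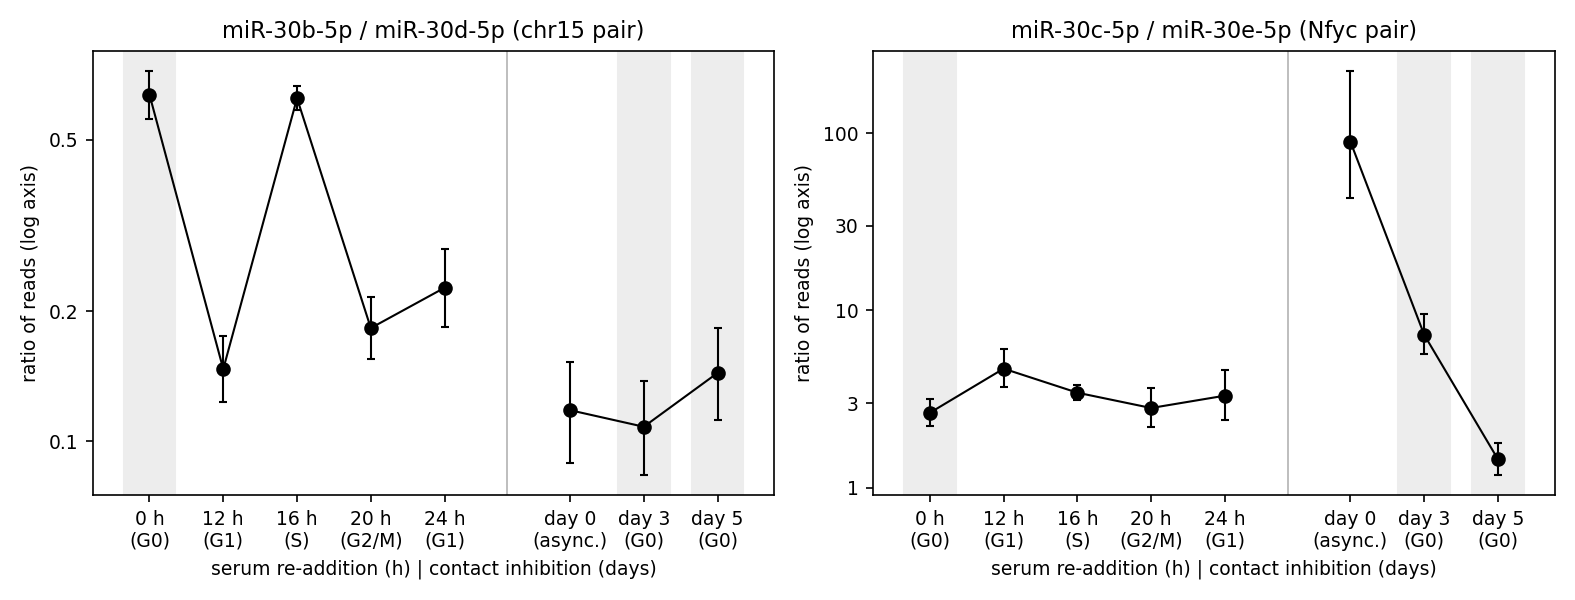
Ratio of reads of neighbouring members (vertical axes, log) in the 8 single libraries (horizontal axes), with 95% exact conditional binomial intervals. Reads were counted by their first 20 bases. On the left miR-30b-5p over miR-30d-5p is at 0.637 at 0 h and 0.625 at 16 h (with whole inserts 0.612 and 0.230) and at 0.108 to 0.227 in the other 6 libraries, and on the right miR-30c-5p over miR-30e-5p runs from 89.6 on contact day 0 to 1.45 on day 5 (with whole inserts 33.6 and 1.21).

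The family's hairpins used their arms unequally. Summed over libraries, Mir30e gave 1121 5p and 477 3p reads, so that the less abundant arm held 29.8%, and Mir30a gave 1693 and 535 reads (24.0%). They ranked 23 and 29 of 125 hairpins with both arms, whose median was 5.33%. Mir30b (2517 and 34 reads, 1.33%) and Mir30d (7166 and 30 reads, 0.417%) ranked 100 and 111 and gave almost only the 5p arm. In all, 3p arms were 8.73%, 0.524%, 8%, 4.65% and 6.19% of the family's reads over the serum times and 10.4%, 7.71% and 9.98% over the contact days.

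The 3p over 5p ratio of miR-30a was 0.320, 0, 0.304, 0.733 and 0.313 in serum and 1.34 (0.935 to 1.93), 0.291 (0.213 to 0.392) and 0.152 (0.106 to 0.214) on contact days 0, 3 and 5. That of miR-30e was 0.497, 0, 0.434, 0.226 and 0.154 in serum and 3.57 (1.5 to 9.78), 0.725 (0.493 to 1.06) and 0.462 (0.345 to 0.613) in contact. The asynchronous day 0 library was the highest of all 8 for both hairpins, and day 5 was below day 0 in both. For miR-30a the interval of day 0 overlapped that of 20 h (0.485 to 1.1). The level of miR-30a-3p was 407, 161 and 151 CPM on contact days 0, 3 and 5, that of miR-30e-3p 136, 141 and 283 CPM. In the serum libraries miR-30a-3p had 190, 0, 215, 186 and 172 CPM and miR-30e-3p 249, 0, 208, 80.2 and 44.3 CPM. The limma test of arm use took 25 hairpins with at least 10 reads of each arm in every library and called 2 (8%), with 7 at an unadjusted p under 0.05. No miR-30 hairpin could enter it, since 12 h held 9 reads or fewer of each 3p arm. Without the 12 h library Mir30a alone of them entered, at −1.44 on the log2 scale for G0 over the others (SE 0.74, limma adjusted p = 0.165). Where 10 reads of each arm summed over all 8 libraries were enough, Mir30a was at −0.564 (SE 1.86, limma adjusted p = 0.934) and Mir30e at 0.103 (SE 1.77, adjusted p = 0.97). By that rule Mir30b was at −2.38 (SE 1.33, adjusted p = 0.533) and Mir30d at 1.91 (SE 1.36, adjusted p = 0.542).

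**Figure D3:**
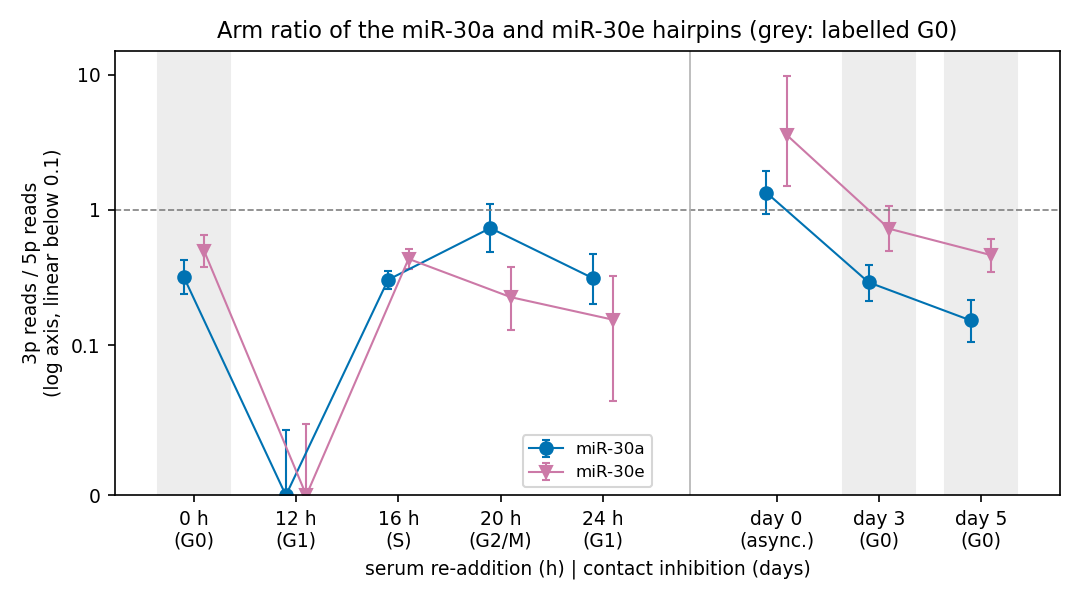
3p over 5p reads of the miR-30a and miR-30e hairpins (vertical axis, log above 0.1 and linear below) in the 8 single libraries (horizontal axis), with 95% exact conditional binomial intervals and a dashed line at equal arms. Both hairpins are highest on contact day 0 (1.34 and 3.57) and at 0 at 12 h, where no 3p read was found. For miR-30a the intervals of contact day 0 and serum 20 h overlap.

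Members also differed in their 3′ ends. A read was called A-tailed where all bases past its match to the hairpin were A, and U-tailed where they were U (T in the reads). Such bases are known to be added after processing by terminal nucleotidyltransferases. Over all libraries 44.4% of miR-30b-5p reads were A-tailed, beside a median of 7.38% over 196 miRNAs with at least 500 reads, and miR-532-3p was next with 44.2%. This pools libraries of unequal depth, with 1471 of 2517 miR-30b-5p reads from 16 h. Without 12 h the share was 40.9% and ranked 3, without 16 h it was 39.1% and ranked 3, and the mean of the 8 libraries' shares was 41.5%. In the pool miR-30c-5p ranked 5 with 35.7% and miR-30d-5p 37 with 13.4%, while miR-30a-5p had 5.61% and miR-30e-5p 3.66%. The tails of miR-30b-5p were longer: 1 base in 26.1% of its A-tailed reads, 2 in 22.8% and 3 in 30.5%, against 44.3%, 27.3% and 20.9% for miR-30c-5p and 66.3%, 19.2% and 7.72% for miR-30d-5p.

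The 3p arms of miR-30a and miR-30e carried U instead. miR-30a-3p was U-tailed in 46.9% of reads, rank 3 of 196 with a median of 2.86%, and miR-30e-3p in 49.9% of its 477 reads. Their commonest form replaced the last base. The forms below are written as read, with tail bases in capitals, and are shown since the template gives another base there.
miR-30c-5p templated: tgtaaacatcctacactctcagct
miR-30c-5p with 1 A: tgtaaacatcctacactctcagA
miR-30c-5p with 3 A: tgtaaacatcctacactctcagAAA
miR-30a-3p templated: ctttcagtcggatgtttgcagc
miR-30a-3p tailed: ctttcagtcggatgtttgcagT
miR-30e-3p templated: ctttcagtcggatgtttacagc
miR-30e-3p tailed: ctttcagtcggatgtttacagT
The templated miR-30c-5p form had 981 reads, the form with 1 A 375 and that with 3 A 171. Of miR-30a-3p the templated form had 111 reads and the tailed form 224, and of miR-30e-3p they had 118 and 204.

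**Figure D4:**
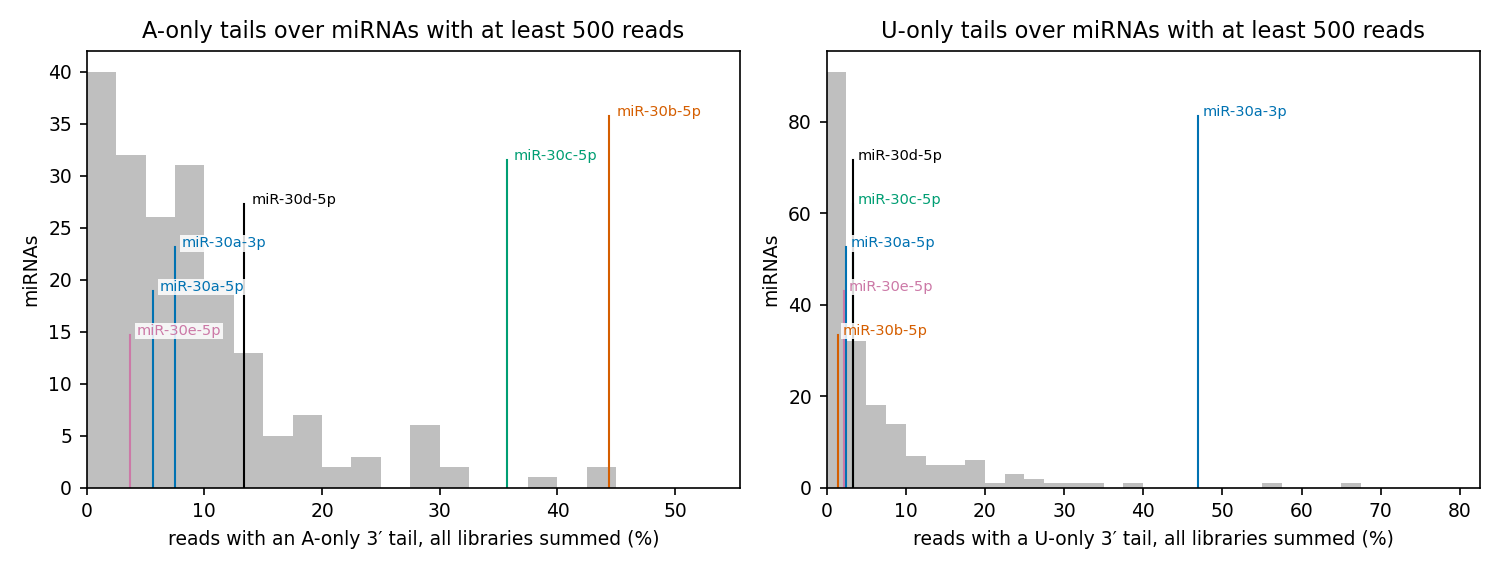
Number of other miRNAs (grey bars) by the share of their reads with an A-only (left) or U-only (right) 3′ tail, over miRNAs with at least 500 reads and all libraries summed, with vertical lines at the miR-30 members. miR-30b-5p (44.4%) and miR-30c-5p (35.7%) lie far right for A, and miR-30a-3p (46.9%) for U.

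The A-tailed share of miR-30c-5p was 0.883%, 47.6%, 42.8%, 47.7% and 36.6% over the serum times, and 40.5%, 32.9% and 10.9% on contact days 0, 3 and 5. Its 3 G0 libraries (0.883% to 32.9%) all lay below the other 5 (36.6% to 47.7%). The nearest of them, day 3 (504 reads) and 24 h (172 reads), had overlapping 95% exact intervals. The 0 h value was 4 A-tailed of 453 reads, with 16.6% U-tailed reads there against 0% to 3.06% in the other 7 libraries. miR-30b-5p had A-tailed shares of 21.1%, 98.7%, 48.1%, 48.6% and 34.2% in serum and 52.4%, 25.4% and 3.90% in contact. Its G0 libraries (3.90% to 25.4%) also lay below the others (34.2% to 98.7%), and the intervals of day 3 (71 reads) and 24 h (114 reads) overlapped. The 12 h value was 148 of 150 reads, from 4 distinct inserts.

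The other 5p members did not separate: miR-30d-5p had 12.7% to 24.0% in G0 and 9.33% to 20.9% elsewhere, and miR-30a-5p 5.47% to 11.2% and 0% to 15%. All other miRNAs pooled had 4.81% to 8.71% in G0 and 6.79% to 11% in the other libraries. With at least 50 reads in every library, 2 of 4 members lay below in every G0 library, beside 10.1% of 109 miRNAs that did so and 0% that lay above.

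A limma test of the log2 odds of an A tail (2-sided, experiment as a term, chosen after the shares were seen) called 0 of 109 miRNAs (0%), with 14 at an unadjusted p under 0.05. The difference was negative, with fewer A tails in G0, for 78 of the 109 miRNAs and for 2 of the 4 members tested. miR-30c-5p was at −4.09 for G0 over the others (SE 1.08, unadjusted p = 0.00703, limma adjusted p = 0.269) and miR-30b-5p at −3.10 (SE 1.86, adjusted p = 0.535), against a median of −0.59. miR-30a-5p was at 0.88 and miR-30d-5p at 0.32. The result for miR-30c-5p depended on single libraries: without contact day 0 it was −6.27 with a limma adjusted p of 0.00738, 1 of 9 miRNAs then called, and without serum 0 h it was −1.46 (adjusted p = 0.991). The few distinct inserts at 0 h and 12 h stand beside these shares, and their part was not tested.

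The level of miR-30c-5p depended on whether reads that leave the template were counted. Its fully templated reads were 80.4%, 41.9% and 77.7% of the reads at serum 0 h and on contact days 3 and 5, and 26.8% to 31.2% in the other 5 libraries. Where only inserts identical to the hairpin over their whole length were counted, its log2 fold change of G0 over the other libraries was 0.65 (SE 0.52, adjusted p = 0.673), against −0.63 when tailed reads were counted too. Neither fold change passed the test.

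**Figure D5:**
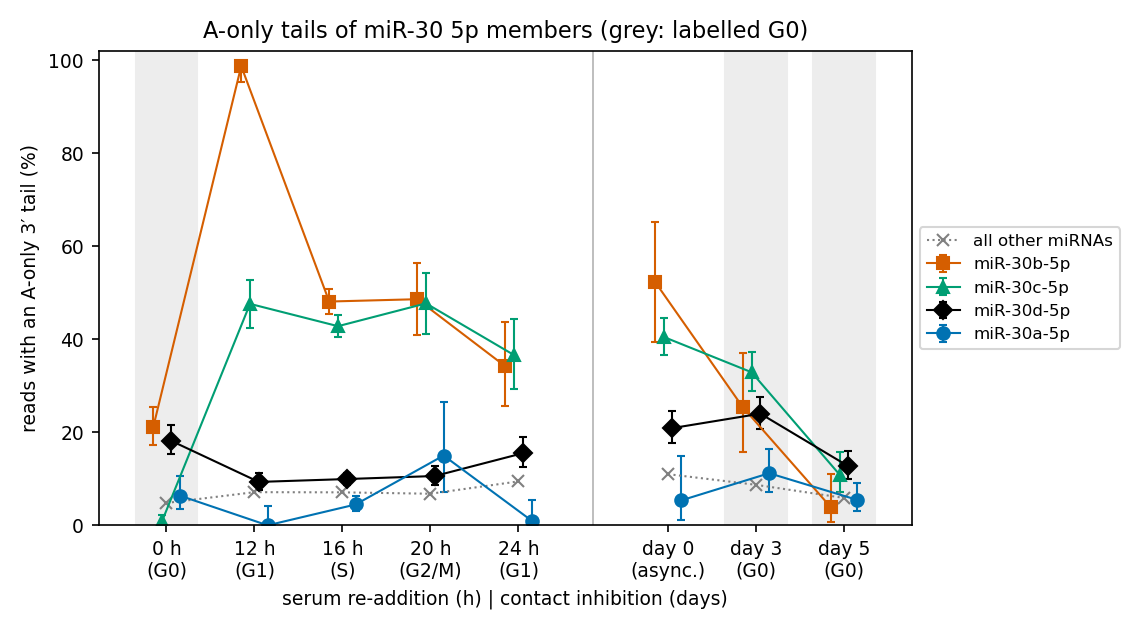
Share of reads with an A-only 3′ tail (vertical axis, %) for 4 miR-30 5p arms and for all other miRNAs pooled, in the 8 single libraries (horizontal axis), with 95% exact binomial intervals for the members. miR-30b-5p and miR-30c-5p are lower in the 3 G0 libraries (3.90% to 25.4% and 0.883% to 32.9%) than in the other 5. The pooled others are at 4.81% to 8.71% in the G0 libraries and 6.79% to 11% in the other 5. For both members the intervals of contact day 3 and serum 24 h overlap.

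The miRNAs most like 3 of the members in pattern were found by Pearson's r of log2(CPM + 1) over the 8 libraries, a description in which each point is 1 library with its own depth. The highest and lowest libraries named for these miRNAs are those by TMM-scaled CPM, and can differ with another scaling. For miR-30e-5p the nearest were miR-136-5p (r = 0.97), miR-101a-3p (0.91) and miR-376b-3p (0.90), all with their lowest level on contact day 0. For miR-30a-5p they were miR-369-3p (0.90), miR-19a-3p (0.84) and miR-21a-5p (0.84), all highest on contact day 5. For miR-30c-5p they were miR-206-3p (0.81), miR-222-3p (0.77) and miR-574-5p (0.75), all highest on contact day 0. Between members, r was −0.82 for miR-30c-5p with miR-30e-5p, −0.82 for miR-30a-5p with miR-30d-5p, and 0.55 for miR-30a-5p with miR-30e-5p.

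Other miRNAs known to repress Ccn2 or collagens were listed beside the family. Of 9 listed, 7 had reads assigned and the test of G0 over other libraries called 0 of them. The log2 fold changes were 2.00 for miR-19a-3p (SE 0.78, edgeR adjusted p = 0.349), 1.48 for miR-18a-5p, 1.15 for miR-19b-3p, 1.52 for miR-29b-3p, 1.57 for miR-29c-3p, 0.12 for miR-26a-5p and −0.60 for miR-29a-3p. miR-29a-3p, the most abundant, had 51816, 23809 and 34134 CPM in the G0 libraries (serum 0 h, contact days 3 and 5) and 48441 to 88190 CPM in the others.

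miR-30f, read from the strand opposite Mir30e, had 0 reads in all 8 libraries, which allows up to 3 reads in each.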

How the data were processed

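The deposited files give, for each library, distinct 36-nt reads and the read count of each, as the authors left them with the 3′ adapter in place, per the file contents. The labels refer to an earlier publication for library preparation; for the read caller, filters and genome build: not given in the sources used here. With pandas 2.3.3, scipy 1.17.1 and numpy 2.4.6 under Python 3.11.15, the adapter was trimmed (at least 6 bases, 1 mismatch per 8), marker oligonucleotides (a shared run of 12 bases) were removed and inserts of 16 to 30 nt were kept. Arms were defined from inserts of 18 to 26 nt that matched 1174 GENCODE M21 hairpins, with at least 10 reads and 50% of them at 1 5′ end. A read was counted by its first 20 bases. Reads shared by 2 hairpins were not split.

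Groups came from the labelled phase. Tests were edgeR 4.0.16 (R 4.3.3, TMM, robust quasi-likelihood, at least 10 CPM in 3 libraries, adjusted p under 0.05), DESeq2 1.42.0 as an alternative, and limma 3.58.1 on log2 arm ratios and log2 odds of A tails (0.5 added to counts). The design had 5 residual degrees of freedom. The edgeR and limma steps were tested on simulated data with large planted changes. Whether they could find changes as small as those of most members was not tested. The SE of an edgeR log2 fold change is derived from its F value. Intervals are 95% and exact. Alternatives were other scalings, filters, counting rules, no experiment term, and each library left out. All miR-30 arms are reported. The 3 miRNAs nearest in pattern were taken for miR-30a-5p, miR-30c-5p and miR-30e-5p. The members and lists were chosen with earlier results of these data known.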

Additional observations from a re-analysis of the deposited data

Results flagged for a closer look

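Some values stood apart within the 5 libraries not labelled G0, by the gap to the next library against the range of the 5 (Dixon's criterion, by which chance marks about 1 in 20 groups). Several members and measures were looked at, and how many such values chance would mark among them was not worked out. miR-30c-5p had 3406 CPM on contact day 0, with 953 to 1652 CPM in the 4 serum libraries. This rests on the TMM scaling: per 1000000 miRNA reads it had 1923 on contact day 0 and 1250 to 1928 in those 4 libraries. miR-30d-3p had 38.8 CPM at 24 h, from 7 reads. The A-tailed share of miR-30b-5p was 98.7% at 12 h, from 150 reads of 4 distinct inserts.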

How the results depend on the processing

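No paired analysis was possible because each condition has 1 library and the replicate numbers pair nothing. The count of miRNAs called between G0 and the other libraries (3) was 2 with DESeq2 size factors or the first 19 bases, 3 with total reads, 8 without a filter, 16 by DESeq2, 1 with whole inserts and 1 without the experiment term, and ran from 0 to 12 with single libraries left out: 0 without serum 0 h or 24 h, 1 without 20 h or contact day 5, 5 without day 3 and 12 without 16 h. No member was called under any of them. Signs turned for miR-30b-5p without the experiment term (−0.40), for miR-30c-5p with whole inserts (0.65), and with a library left out for miR-30a-3p (−1.09 to 0.43), miR-30b-5p (−0.19 to 0.52) and miR-30c-5p (−1.24 to 0.12).

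The test of unlike differences called 1 miRNA with whole inserts, no member. The arm test called 2, 0 with arms summed over libraries, 1 without the experiment term, and 0 to 4 with single libraries left out. The A-tail test called 0 to 9 with single libraries left out; miR-30a-5p turned to −0.059 with 5 added to counts, and miR-30d-5p ran from −0.30 to 0.83. With whole inserts the family share was 0.751%, 0.648%, 0.559%, 0.635% and 0.578% in serum and 0.247%, 0.247% and 0.261% in contact; tailed reads are left out by that rule. Of 17 calls of members between single libraries, 6 were left with at least 500 reads; with whole inserts 12 were called the same way, 2 were not called, 3 fell under 100 reads, and 19 were called in all. Of the ratios between members or arms, 31 values moved beyond their interval, all with whole inserts; the day 0 ratios of 3p over 5p were then 0.920 for miR-30a and 1.80 for miR-30e. The causes of these changes were not tested. Read numbers of 0 to 22 limit the minor 3p arms.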
